A study of Homo sapiens with 2 samples.

Results

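The genes of the proteasome, the protease complex that degrades ubiquitin-tagged proteins, were compared between HepG2 cells that had received the polyherbal remedy Padma 28, as an extract in ethanol at 218 μg/ml for 18 h, and cells that had received the solvent at 0.9% (EtOH). HepG2 is an established line from a human liver tumour. Members were all protein-coding genes of the probe annotation whose symbol begins with PSMA to PSMG and a digit. There were 46 of them among 21357 annotated genes, and 44 had at least 1 probe set of their own, 87 probe sets in all. PSMA6 and PSME2 were represented only by probe sets shared with another gene, so no value is given for them, while PSMB11, PSMC5, PSMD7 and PSMD13 are not in the annotation used here and were not analysed. The name rule also caught PSMC3IP, a meiotic recombination factor, and PSME3IP1, a partner of the activator PSME3, which are not subunits. Further, 6 antisense or divergent non-coding transcripts with such names were left out.

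RNA was taken from 3 pooled cultures per treatment and measured on a single array of the type U133 Plus 2.0 from Affymetrix. How much cultures vary is therefore unknown, and no statistical test of the treatment could be made. A difference between the arrays may lie between cultures as well as between treatments, and a change in all cells cannot be told apart from a change in some of them. All values are log2 expression values as the authors computed them with GCRMA, and a difference is Padma 28 minus EtOH on that log2 scale. A gene is represented by its brightest own probe set. Probe sets were taken as well above background from 4.25 with EtOH and 4.35 with Padma 28, which is 2 log2 units over the most frequent value of each array. Hepatocyte markers matched the label of the cells, with 7 measured genes such as albumin between 13.28 and 16.62 with EtOH and between 12.84 and 16.52 with Padma 28. On the brightest probe set all 7 had lower values with Padma 28, the opposite direction to most proteasome genes. The median difference was -0.23, and TTR (-0.44) and FGB (-0.55) were below -0.32. Of all 3393 genes with a mean level over 10, 1420 were below 0. Probe sets lay on both sides of 0 for albumin (-1.07 to 0.27) and APOA1 (-0.07 to 0.03). The part of these lower values in the results was not tested. Of 6 measured leukocyte markers, PTPRC, CD3E, MS4A1 and NKG7 were below background on both arrays, CD3D was close to the limit at 4.74 and 4.84, and lysozyme LYZ stood at 14.36 and 14.23.

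The proteasome consists of a barrel, the 20S core, and of caps that open it. Alpha subunits (PSMA genes) form the outer rings and the gate of the barrel, and beta subunits (PSMB genes) the inner rings, in which a few members cut the substrate. The 19S cap recognises ubiquitin chains, removes them, and unfolds the substrate with a ring of ATPases (PSMC genes), the other cap subunits being PSMD genes. In immune cells and after interferon, the catalytic subunits are exchanged for inducible ones, which gives the immunoproteasome. Proteasome genes are known to be under the joint control of the transcription factor Nrf1 (NFE2L1), and in some settings of Nrf2 (NFE2L2), both of which bind antioxidant response elements.

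Proteasome genes were slightly higher with Padma 28 in most parts of the complex, and none passed 2-fold. Of the 44 measured members, 41 had a difference above 0, against 32.6% of all 19775 genes. The median difference was 0.31, or 1.24-fold, against -0.02 for all genes. A log2 difference of 0.32 served as the threshold for a small change. It was exceeded by 21 members, against 10.5% of all genes, and no member was below -0.32, against 5.31% of all genes. Many of all genes are near background. Of 10271 genes with a mean level 2 log2 units over the most frequent value, 1944 were above 0.32 and 976 below -0.32. Their median was 0.06 and their 95th percentile 0.64, and 43 members were among them. The members are mostly bright, and genes near background lie close to 0, so the same counts were also taken over genes with a mean level above 10. Of the 36 members in that range, 34 were above 0 and 16 above 0.32, with a median of 0.31. Over all 3393 genes at that level, 58.1% were above 0, 11.8% above 0.32 and 10.2% below -0.32, and the median was 0.05. The 5th and 95th percentiles of these genes were -0.45 and 0.46, so most single members lay within the range of other genes. As a set, the members had the higher median and the larger shares above 0 and above 0.32. No member was more than 2-fold higher, against 0.875% of all genes, or more than 2-fold lower, against 0.384%.

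**Figure D1:**
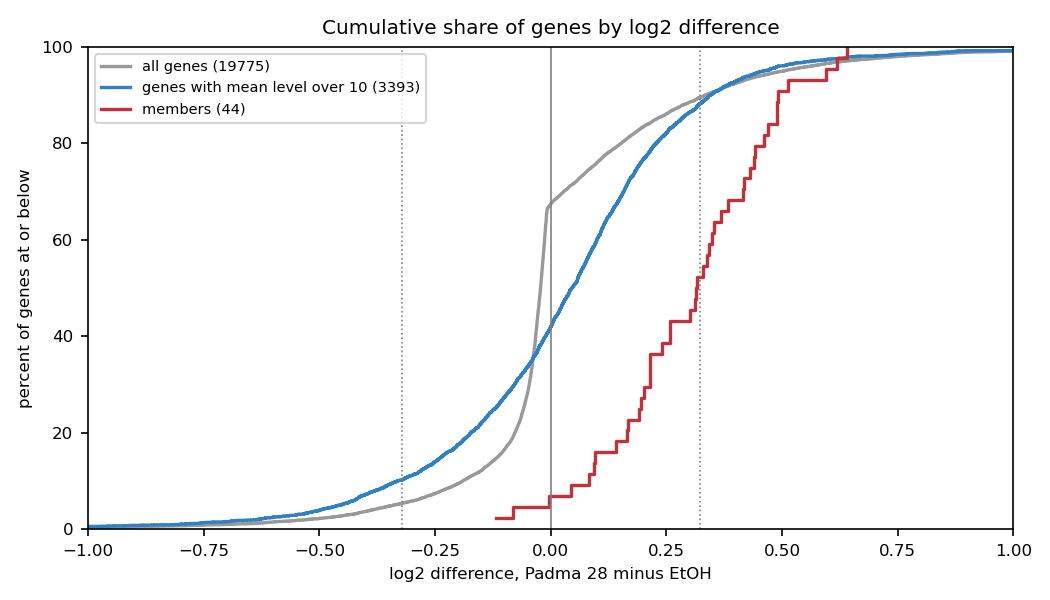
Cumulative percent of genes (vertical axis) by log2 difference, Padma 28 minus EtOH (horizontal axis, drawn from -1 to 1), for all genes, for genes with a mean level over 10 and for the members, 1 array each. Dotted lines mark differences of -0.32 and 0.32. Over most of its length the members' curve lies to the right of both others, with a median of 0.31, and ends at 0.64.

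The probe sets of a member above background mostly shared a direction, but not always the size of the difference. Of the 87 probe sets, 70 were well above background on both arrays, and of these 64 were above 0 and 6 below, ranging from -0.08 to 0.98. Several belong to the same gene and are not independent. The share over all such probe sets was not counted. Of genes with a mean level 2 log2 units over the most frequent value, 58.3% were above 0. The other 17 of the 87 probe sets were not well above background on both arrays and lay near 0, with a median of -0.02. Between the 2 brightest probe sets of a gene above background, the difference varied by a median of 0.10 over 17 members and of 0.14 over 4912 genes. This is the only measure of error within these data, and it covers the probes, not the cultures.

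The promoters of 4 members are shown because these genes mark the range of the results. PSMB3 had the highest difference of the core, PSMD14 and PSMD6 the highest and the lowest of the 19S cap, and PSMB9 the highest of the immunoproteasome. Each line gives the 250 bases before the start site in RefSeq (GRCh38.p14), read 5′ to 3′ on the strand of the gene. Capitals mark matches on either strand to TGACNNNGC, the core of the antioxidant response element, and to CCAAT, the site of the factor NF-Y. PSMB3 lies at chr17:38752491-38752740 on the plus strand, PSMD14 at chr2:161308175-161308424 on the plus strand, PSMB9 at chr6:32853942-32854191 on the plus strand, and PSMD6 at chr3:64023495-64023744 on the minus strand.
PSMB3: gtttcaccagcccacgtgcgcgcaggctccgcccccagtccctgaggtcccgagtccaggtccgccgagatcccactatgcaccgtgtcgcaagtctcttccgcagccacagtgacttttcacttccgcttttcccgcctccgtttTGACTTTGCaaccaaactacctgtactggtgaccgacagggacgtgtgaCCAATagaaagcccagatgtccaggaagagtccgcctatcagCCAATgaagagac
PSMD14: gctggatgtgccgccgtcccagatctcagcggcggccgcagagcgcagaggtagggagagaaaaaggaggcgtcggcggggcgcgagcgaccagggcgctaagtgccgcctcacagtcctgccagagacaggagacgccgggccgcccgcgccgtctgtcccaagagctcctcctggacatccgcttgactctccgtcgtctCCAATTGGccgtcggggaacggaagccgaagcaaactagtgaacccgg
PSMB9: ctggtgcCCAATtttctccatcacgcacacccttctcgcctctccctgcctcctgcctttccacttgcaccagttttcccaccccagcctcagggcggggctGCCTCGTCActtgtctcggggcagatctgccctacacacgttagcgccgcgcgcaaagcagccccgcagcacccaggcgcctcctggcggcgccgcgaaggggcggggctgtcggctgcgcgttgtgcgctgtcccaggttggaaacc
PSMD6: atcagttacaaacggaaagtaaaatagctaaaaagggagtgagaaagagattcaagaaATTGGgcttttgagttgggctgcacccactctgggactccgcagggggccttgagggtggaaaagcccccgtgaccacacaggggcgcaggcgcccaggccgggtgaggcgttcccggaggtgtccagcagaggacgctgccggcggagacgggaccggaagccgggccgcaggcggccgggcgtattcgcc
PSMB3 held 1 response element core, starting 104 bases before the start site, and a pair of CCAAT boxes at 55 and 13 bases. PSMB9 held 1 response element core on the opposite strand, at 148 bases, and a CCAAT box at 243 bases. PSMD14 had no response element core but 2 CCAAT boxes on opposite strands that overlap each other, at 48 and 45 bases. PSMD6, without any difference between the arrays, held a single CCAAT box at 192 bases.

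Promoters of 40 of the 46 members were found in the RefSeq table, 50 windows in all, since some genes have several starts. In windows of 300 bases, from 250 before the start site on, TGACNNNGC on either strand was present in 28% of member promoters and in 13.8% of 22199 promoters of protein-coding genes. CCAAT was present in 42% against 34.7%, and GAAANNGAA, a pattern found in interferon response elements, in 16% against 7.09%. The latter occurred in PSMA4, PSMB4, PSMB8, PSMB10, PSMC2, PSMG4, PSME1 and PSME2, and no match of one pattern overlapped a match of another. Members with and without a match were then set side by side, without a test. The 13 measured members with TGACNNNGC had a median of 0.31, ranging from -0.08 to 0.62. The 25 without it (of those with a promoter in the table) had a median of 0.34, ranging from -0.12 to 0.64. With CCAAT the median was 0.35 over 19 members and without it 0.26 over 19 members. With GAAANNGAA it was 0.43 over 7 members and without it 0.32 over 31 members. Such a match describes the letters of a window and says nothing of binding.

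**Figure D2:**
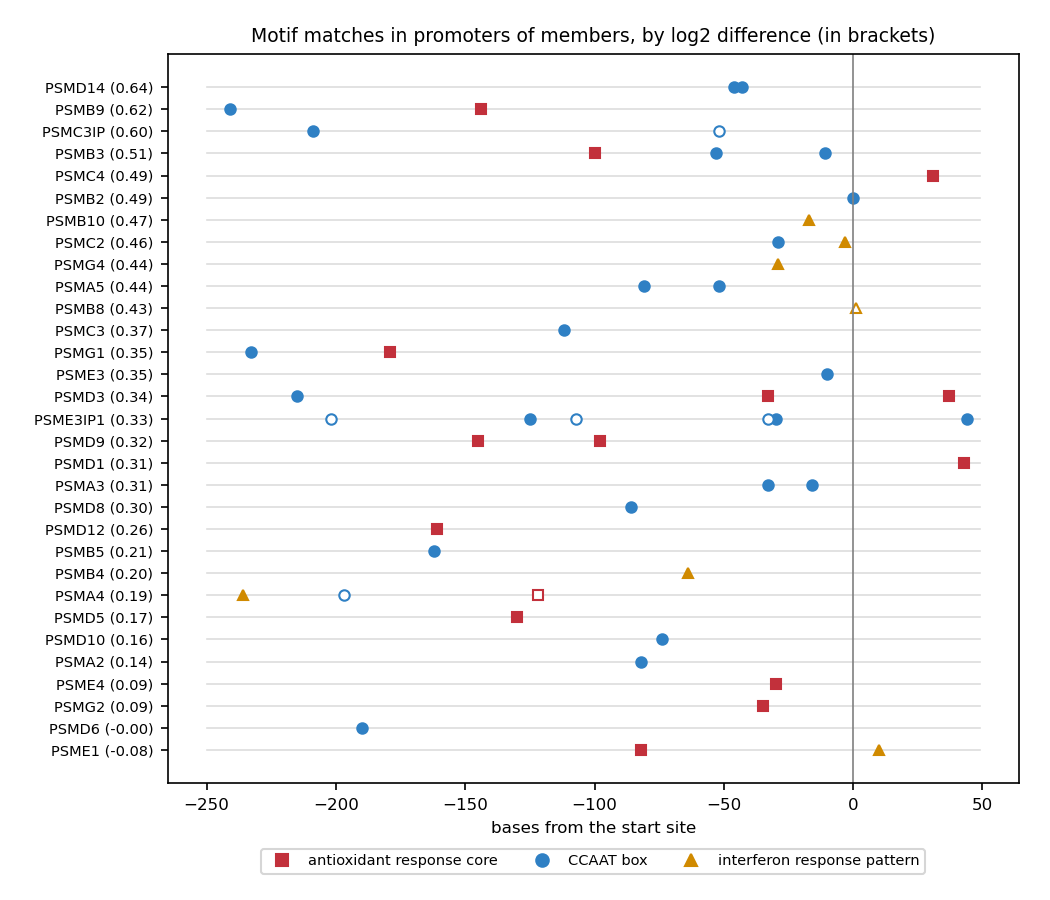
Positions (centres) of matches to TGACNNNGC (antioxidant response core, squares), CCAAT (circles) and GAAANNGAA (interferon response pattern, triangles), on either strand, in bases from the start site (horizontal axis), for the measured members with a match, ordered by log2 difference (in brackets). Open symbols lie in another promoter of the same gene. Squares occur from PSMB9 at 0.62 down to PSME1 at -0.08.

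All 13 measured genes of the constitutive 20S core had higher values with Padma 28, with a median difference of 0.24, or 1.18-fold. In the alpha rings, PSMA5 went from 10.69 with EtOH to 11.12 with Padma 28, the largest difference of the 6 measured alpha genes at 0.44. PSMA3 went from 11.83 to 12.14, a difference of 0.31. PSMA1 went from 12.60 to 12.86, and its 3 probe sets gave between 0.25 and 0.29. The remaining alpha genes differed less, with PSMA7 at 12.96 and 13.16, PSMA4 at 12.18 and 12.37, and PSMA2 at 12.74 and 12.89. The second probe set of PSMA2 had a larger difference than the brightest, 0.49 against 0.14. PSMA8, an alpha subunit of the germ line, was below background on both arrays.

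Among the beta subunits, those without a catalytic site held the largest differences of the core. PSMB3 went from 11.91 to 12.42, which is 1.43-fold, and PSMB2 from 12.34 to 12.83, which is 1.40-fold. For PSMB2 both further probe sets above background, at lower levels, had no higher values with Padma 28 (-0.06 and -0.05), so its value rests on the brightest. PSMB1 at 13.32 and 13.54 and PSMB4 at 12.76 and 12.96 differed by 0.22 and 0.20. The catalytic genes were similar to the alpha genes. PSMB6, which cuts after acidic residues, went from 11.59 to 11.97, a difference of 0.38. PSMB7, the trypsin-like subunit, went from 11.84 to 12.09 and PSMB5, the chymotrypsin-like one and the target of proteasome inhibitors such as bortezomib, from 13.35 to 13.56. Of the core genes, PSMA5, PSMB2, PSMB3 and PSMB6 were above 0.32.

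**Figure D3:**
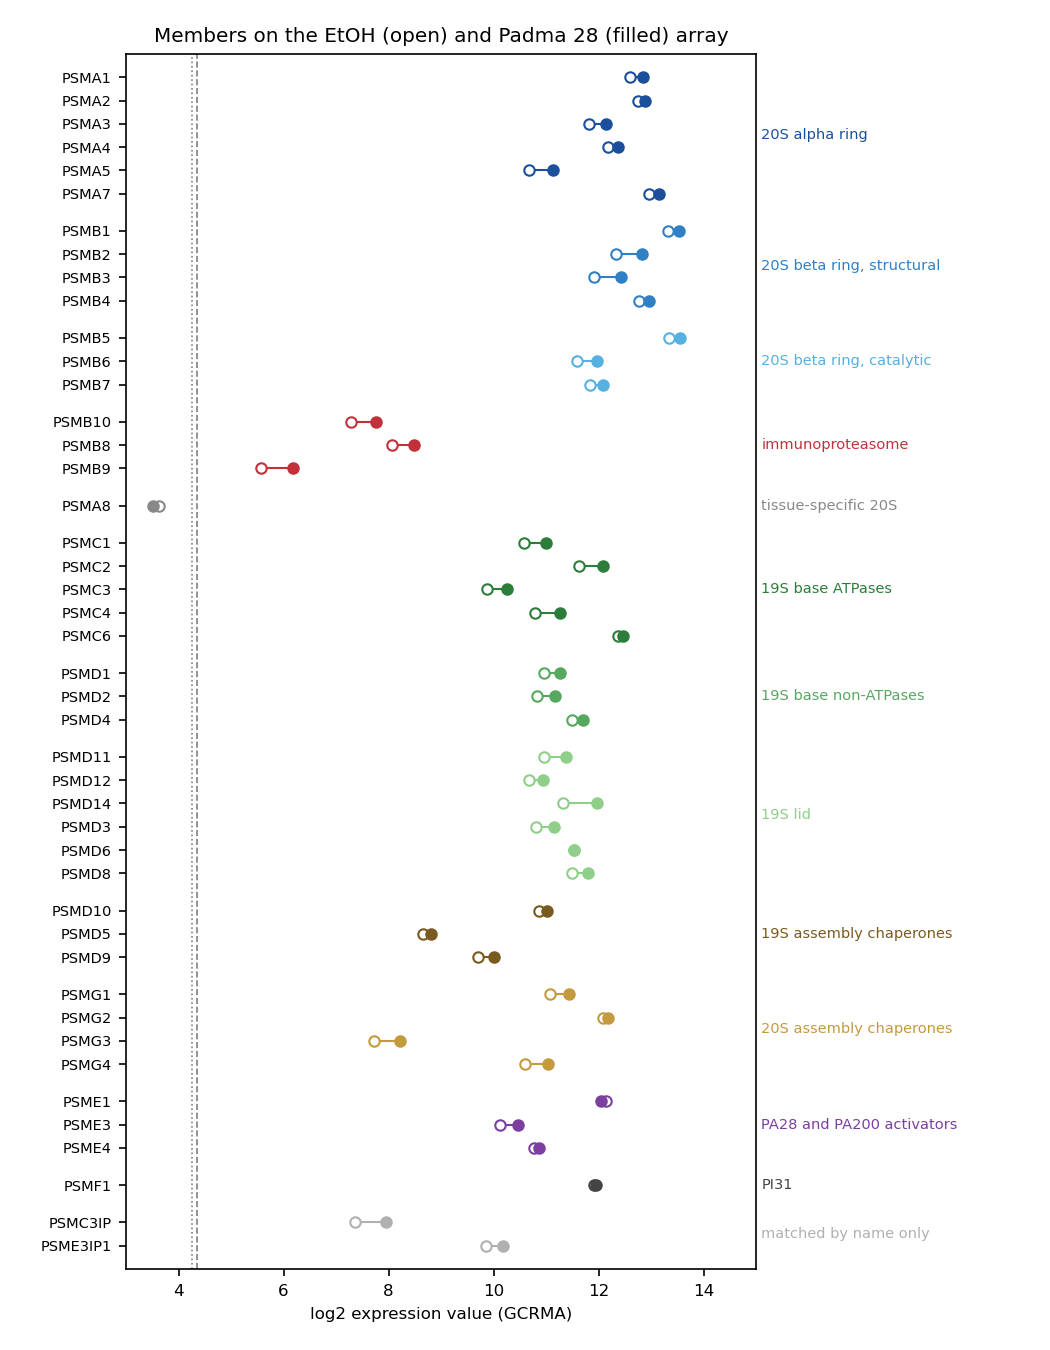
Log2 expression value (horizontal axis) of the brightest probe set of each measured member with EtOH (open) and Padma 28 (filled), 1 array each, grouped by role, with the background limits of the EtOH array (dotted) and the Padma 28 array (dashed). Filled points lie to the right of the open ones except for PSMA8, PSMD6 and PSME1. Levels of different genes come from different probes and cannot be compared.

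The inducible subunits of the immunoproteasome differed more between the arrays than their constitutive counterparts. PSMB9, the counterpart of PSMB6, went from 5.57 with EtOH to 6.19 with Padma 28, a difference of 0.62 or 1.54-fold. PSMB10, the counterpart of PSMB7, went from 7.29 to 7.76, a difference of 0.47, and PSMB8, the counterpart of PSMB5, from 8.06 to 8.49, a difference of 0.43. All 3 were above background on both arrays and differed by more than 0.32. In each pair the inducible gene had the larger difference, by 0.23 for PSMB9 over PSMB6, 0.23 for PSMB10 over PSMB7 and 0.22 for PSMB8 over PSMB5. The median of the core was 0.23 below that of the immunoproteasome. These 3 genes have 1 probe set each, and a gap of this size was not tested.

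Brightness moved with this comparison. Over the 43 members above background, the difference was smaller where the probe set was brighter, with a Spearman correlation of -0.45 and a Pearson correlation of -0.50 across genes, which are not independent. The 21 brighter members had a median of 0.21 and the 22 dimmer ones of 0.36, and the 3 inducible subunits are among the dimmer. Their mean levels were 5.88 to 8.27. At similar mean levels, PSMC3IP (7.65), which is not a subunit, differed by 0.60, PSMG3 (7.97) by 0.49 and PSMD5 (8.73) by 0.17. The part of brightness in the gap was not tested. With 64 added to both linear values, which draws dim genes towards 0, the gap between core and immunoproteasome was -0.11. With 16 added it was -0.19, and after a loess correction of the difference for the mean level it was -0.24.

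The genes of the 19S cap had a median difference of 0.34, or 1.27-fold, and 13 of 14 were above 0. Above 0.32 were 8 of them, and none was below -0.32. The largest difference of all members was that of PSMD14, the deubiquitinase of the lid that releases ubiquitin chains from the substrate, which went from 11.32 to 11.96, or 1.56-fold. Its single probe set was bright on both arrays. Next were the ATPases PSMC4, from 10.78 to 11.27, PSMC2, from 11.63 to 12.09, and the lid subunit PSMD11, from 10.97 to 11.39. A dimmer probe set of PSMC2 had a difference of 0.98. PSMC1 at 0.42 and PSMC3 at 0.37 were above the threshold too, as were thus 4 of 5 measured ATPase genes, whereas PSMC6 went from 12.38 to 12.46, a difference of 0.08.

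The base subunits without ATPase activity lay between 0.21 and 0.34, with the large scaffold subunits PSMD1 and PSMD2 at 0.31 and 0.34 and PSMD4, a ubiquitin receptor, going from 11.49 to 11.70. In the lid, PSMD3 was at 0.34 and PSMD8 at 0.30. PSMD12 went from 10.68 to 10.94, a difference of 0.26, while its dimmer probe set differed by 0.84. PSMD6, another lid subunit, was the exception in the cap, with 11.54 on both arrays. The median of the core was 0.10 below that of the cap, a gap that was not tested.

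**Figure D4:**
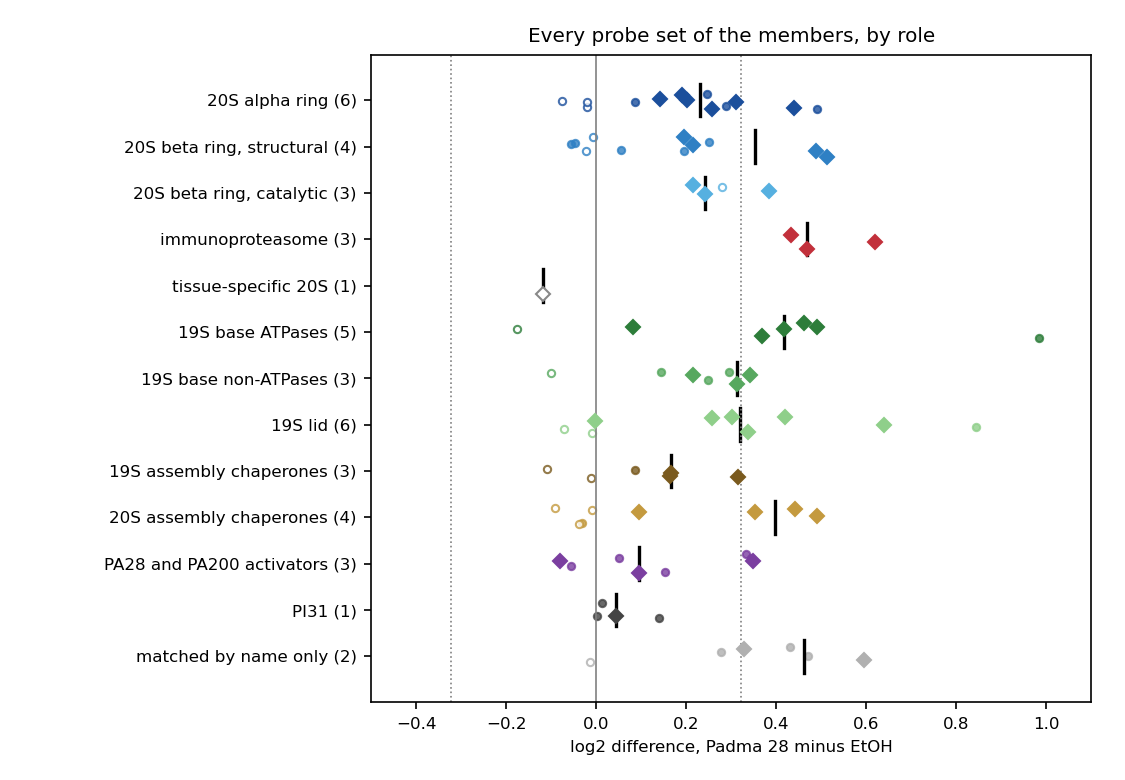
Log2 difference, Padma 28 minus EtOH (horizontal axis), of all 87 probe sets of the measured members by role, with the number of genes in brackets, 1 array each. Each gene has a diamond for its brightest probe set and circles for others, open where not well above background on both arrays. Black bars are medians of the diamonds, and dotted lines mark -0.32 and 0.32. The 3 immunoproteasome genes lie between 0.43 and 0.62.

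The assembly factors, which build the complex and leave it, were all above 0, with a median of 0.32 over 7 genes. This median was 0.13 when each gene was taken as the median of its probe sets or when _x_at and _s_at probe sets were left out, and PSMG4 then lay at -0.03. Of the chaperones of the 20S core, PSMG3 went from 7.72 to 8.21, PSMG4 from 10.60 to 11.04 and PSMG1 from 11.08 to 11.43, each above 0.32. PSMG2, the partner of PSMG1, went from 12.09 to 12.18. For PSMG4 a second probe set above background was at -0.03. The chaperones of the 19S base differed less, with PSMD9 going from 9.70 to 10.01, PSMD5 from 8.65 to 8.82 and PSMD10 (gankyrin) from 10.86 to 11.02, none of them past 0.32.

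The alternative activators and the inhibitor did not share the difference of core and cap as a group. Of the PA28 genes, PSME1, which is known to be induced by interferon together with the immunoproteasome, went from 12.13 to 12.05, a difference of -0.08. PSME3, the nuclear PA28 subunit, went from 10.12 to 10.47, a difference of 0.35, and its 4 probe sets gave between 0.05 and 0.35. PSME4 (PA200), the activator of the nucleus and of spermatogenesis, went from 10.78 to 10.87, with probe sets between -0.06 and 0.15. PSMF1 (PI31), first described as an inhibitor of the core, went from 11.91 to 11.95, and all 4 of its probe sets lay between 0.00 and 0.14. Of the genes caught by name only, PSMC3IP went from 7.35 to 7.95 and PSME3IP1 from 9.86 to 10.19. Without them the median of the remaining 42 members was 0.31.

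Proteasome parts and partners with other names, listed by function, were all above 0 on the brightest probe set. The median was 0.25 over 12 genes, 5 of them past 0.32. Over all genes, 32.6% were above 0 and 10.5% above 0.32. Of the 10271 genes with a mean level 2 log2 units over the most frequent value, 58.3% were above 0. UBE3C was only at 0.0009, and a further probe set above background lay below 0 for UBE3C (-0.06) and TXNL1 (-0.13). UCHL5, a deubiquitinase of the 19S cap, went from 9.67 to 10.49, or 1.76-fold, with 0.60 on a second probe set. Past the threshold were also AKIRIN2, which brings proteasomes into the nucleus, at 0.36, the scaffold ECPAS at 0.35 (3 probe sets above background between -0.02 and 0.38), the ATPase chaperone PAAF1 at 0.33 and POMP, the maturation factor of the core, at 0.32. A further probe set lay below the threshold for PAAF1 (0.16), POMP (0.30) and AKIRIN2 (0.31). The ubiquitin receptor ADRM1 was at 0.20 and the small lid subunit SEM1 at 0.06.

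Upstream of the complex the genes were less uniform. Of the ubiquitin genes and E1 enzymes, only UBB, UBA1 and UBA6 had a probe set of their own, with 0.04, -0.13 and 0.07. Among 11 shuttle factors and parts of the p97 segregase, which hand substrates to the proteasome, 10 were above 0 and 4 above 0.32, with a median of 0.20. The shares over all genes were 32.6% and 10.5%. SQSTM1 (p62), a ubiquitin receptor of autophagy, went from 11.17 to 11.99, but its 4 probe sets above background ranged from -0.05 to 0.81. UFD1, a cofactor of p97, went from 10.03 to 10.67, NSFL1C from 10.95 to 11.33 and UBQLN4 from 7.66 to 8.03. The 5 probe sets of NSFL1C above background ranged from 0.05 to 0.38. VCP, p97 itself, was at 0.20.

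The transcripts of Nrf1 and Nrf2 themselves had lower values with Padma 28. NFE2L1 went from 12.85 to 12.66, and its 3 probe sets lay between -0.26 and -0.19. NFE2L2 was at -0.13, less than the median gap of 0.14 between probe sets of a gene. Both lay between the 5th and 95th percentiles (-0.45 and 0.46) of the 3393 genes with a mean level over 10. Of those genes, 1420 were below 0. KEAP1, which holds Nrf2 in check, had the largest difference of the 10 genes in this list, going from 9.73 to 10.18, followed by MAFG, a small Maf partner of both factors, from 9.08 to 9.44. The CCAAT-binding subunit NFYB was at -0.30, with 3 probe sets above background between -0.30 and 0.18. The median of the list was 0.04, and KEAP1 and MAFG were its 2 genes above 0.32.

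Most genes of the pathway that the immunoproteasome feeds lay near or below 0. Of 14 genes of antigen presentation on MHC class I, 3 were above 0 and the median was -0.06. Among those not above 0, NLRC5 was below background on both arrays (1.86 and 1.84). Over all genes, 32.6% were above 0. The share was 58.3% of the 10271 genes with a mean level 2 log2 units over the most frequent value. TAP2 and TAP1, which carry the peptides made by the proteasome into the endoplasmic reticulum, were the ones above 0.32, with 5.98 and 6.67 for TAP2 and 9.28 and 9.65 for TAP1, although a second probe set of TAP2 was at -0.06. On chromosome 6, RefSeq places TAP2, PSMB8, TAP1 and PSMB9 as consecutive protein-coding genes, with differences of 0.68, 0.43, 0.38 and 0.62. This grouping was made after the values had been seen. Of the genes on either side, HLA-DOB was below background on both arrays, and HLA-DMB went from 5.36 to 5.04, a difference of -0.32. The aminopeptidases ERAP2 and ERAP1 were at -0.31 and -0.28, and HLA-B, HLA-C and beta-2-microglobulin B2M at -0.04, -0.01 and -0.10.

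Of 12 interferon signaling genes, 10 were above 0, 4 above 0.32, JAK2 among them, and 1 below -0.32, and the median was 0.19. Over all genes, 32.6% were above 0 and 10.5% above 0.32. Of the 10271 genes with a mean level 2 log2 units over the most frequent value, 58.3% were above 0. GBP1 was at 0.06, but a second probe set above background was at -0.49. OAS1 went from 7.33 to 8.14 and the transcription factor IRF1 from 6.90 to 7.53, while a second IRF1 probe set was at -0.09. JAK2 was just below the background limit with EtOH (4.00) and at 5.26 with Padma 28, at least 2.02-fold over the EtOH limit. None of its 3 probe sets was above background on both arrays. IFIT1, close to the background limit, was at -0.41, MX1 was below background on both arrays and ISG15 was at 0.09.

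Other protein complexes, all with fewer genes, were taken for comparison. The COP9 signalosome, a relative of the 19S lid, had a median of 0.20 over 9 genes, the translation factor eIF3, which also shares its architecture, of 0.17 over 13 genes, and the chaperonin CCT of 0.09 over 7 genes. Above 0.32 were 2 of 9 signalosome genes and none of the others. On the brightest probe set, all 9 signalosome genes, all 13 eIF3 genes and 6 of 7 CCT genes were above 0. A further probe set above background lay below 0 for EIF3B (-0.78), EIF3E (-0.35), EIF3A (-0.11), COPS7B (-0.01) and CCT4 (-0.01). For CCT6A, below 0 on the brightest, another was at 0.11. The shares over all genes were 32.6% above 0 and 10.5% above 0.32. Values above 0 in most subunits were thus seen in these complexes too, and whether the larger median of the proteasome differs from theirs cannot be tested with 1 array per treatment.

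**Figure D5:**
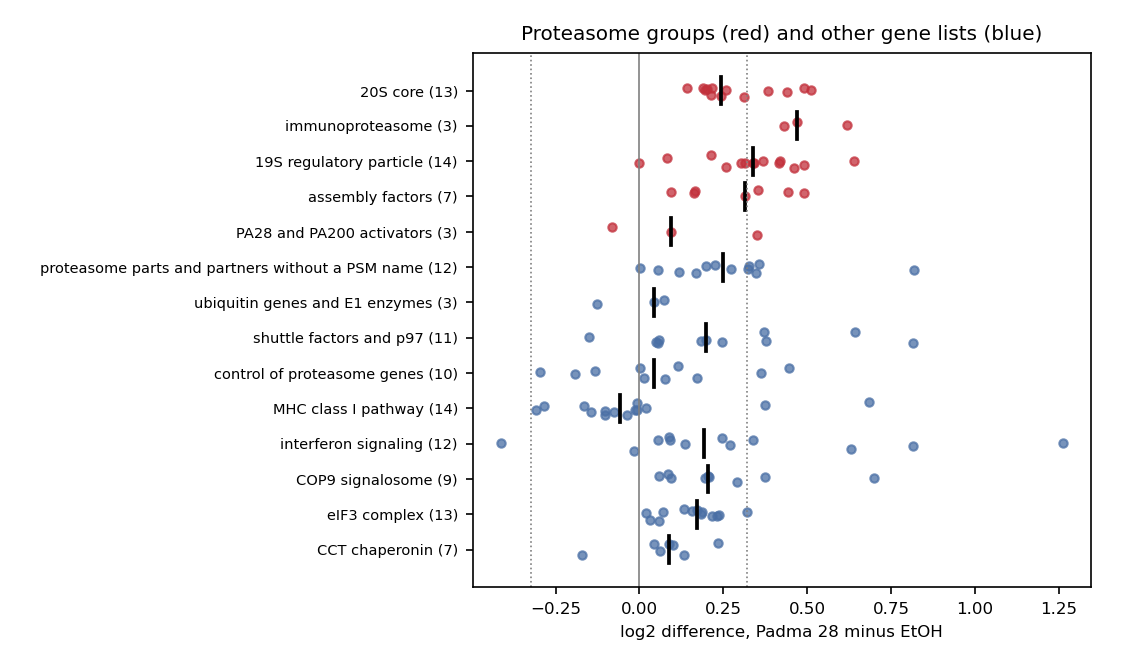
Log2 difference, Padma 28 minus EtOH (horizontal axis), of each measured gene in the proteasome groups (red) and in lists of related genes and other complexes (blue), with the number of genes in brackets, 1 array each. Black bars are medians and dotted lines mark -0.32 and 0.32. The medians run from -0.06 for the MHC class I pathway to 0.47 for the immunoproteasome.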

How the data were processed

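The deposited table gives log2 values for 54675 probe sets, which the authors obtained by GCRMA, a method that removes a sequence-dependent background, equalises the arrays by quantiles and combines the probes of a set. Versions named by the submitters' notes are 2.28.0 for GCRMA and 2.15.1 for R, and the paper's methods name others. The sorted values of the arrays lay within 0.099 of each other, with medians of 3.13 (EtOH) and 3.08 (Padma 28). Normalization by quantiles would hide most of a change in total RNA, so differences are relative to the other transcripts.

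Genes were named from the platform annotation. Of the probe sets, 41097 had 1 gene, 1801 several and 11777 none. The brightest own probe set represented a gene. The log2 difference was taken as in the methods of the paper, whose threshold is 2-fold, and a log2 difference of 0.32 was added as a threshold for small ones. The members, gene lists and thresholds were chosen with earlier results of these data known. All members are given with values. Of each related list, up to 4 genes with the largest difference are named, and any further names were picked with their values in view. With 1 array per treatment no p-value or interval can be given, since precision is limited by the number of arrays. The steps were tested on simulated data. Alternatives were another choice of probe set, leaving out members less than 2 or 3 log2 units over the most frequent value, adding 16 or 64 to linear values, centring (median, or loess of span 0.3), a second quantile normalization, and other kinds of probe sets. Promoters came from RefSeq. Python 3.11.15, numpy 2.4.6, pandas 2.3.3, scipy 1.17.1, statsmodels 0.14.6 and matplotlib 3.10.9 were used.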

Additional observations from a re-analysis of the deposited data

How the results depend on the processing

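The median over all members stayed between 0.21 and 0.34 under the 12 alternatives, and in none of them was a member more than 2-fold higher or below -0.32. A value was taken as moved when it changed by more than the 0.14 between probe sets of a gene, and a count when it changed more than 1.5 times. Without _x_at and _s_at probe sets, 33 members were measured, 25 of them above 0 and 13 above 0.32, and the median of the assembly factors was 0.13. With each gene taken as the median of its probe sets, the assembly factors were also at 0.13, since dim probe sets near 0 then count. The gap between core and immunoproteasome kept its sign, ranging from -0.30 to -0.11, and that between core and 19S ranged from -0.13 to -0.07. Single genes turned below 0 where a dim probe set took the place of the brightest. These were PSMB2 at -0.035, PSMG4 at -0.032 and PSMA3 at -0.02 with the median over probe sets, and PSMB2 at -0.047, PSMD11 at -0.0086, PSMG4 at -0.032, PSMB1 at -0.0082 and PSMD4 at -0.10 without _x_at and _s_at probe sets. Counting members with a mean level over 10 was added after seeing the data. No paired analysis was possible because each treatment had 1 array.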

Other observations

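Of the non-coding transcripts named after a proteasome gene and left out of the members, only PSMA3-AS1 and PSMD6-AS2 had probe sets above background. Both had lower values with Padma 28, the opposite direction to most members. PSMA3-AS1, antisense to the alpha subunit gene PSMA3, went from 8.87 with EtOH to 8.23 with Padma 28 on its brightest probe set, a difference of -0.64. Its other probe sets, at 7.26 and 6.48 and at 6.79 and 5.93, gave -0.78 and -0.86, while PSMA3 itself was at 0.31. PSMD6-AS2 went from 6.80 to 6.50 on 1 probe set and was below background on the other. PSMB8-AS1, PSMG3-AS1, PSMD7-DT and PSMD14-DT did not pass the background limit on either array. Among 10 probe sets of these 6 transcripts, the 4 above background thus came from PSMA3-AS1 and PSMD6-AS2 alone, and probe sets of the same gene are not independent. Of the 10271 genes with a mean level 2 log2 units over the most frequent value, 4286 were below 0. No test was possible with 1 array per treatment.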
